A study of Mus musculus with 6 samples.

Results

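The genes described are 7 matrix metalloproteinases (MMPs), Mmp2, Mmp3, Mmp7, Mmp9, Mmp10, Mmp13 and Mmp14, and 3 tissue inhibitors of metalloproteinases (TIMPs), Timp1, Timp2 and Timp3. They were chosen by name, and all 10 were among the 18268 genes of the deposited table. Transcripts were sequenced from colorectal tissue of C57BL/6 mice in which colitis had been induced with dextran sulfate sodium (DSS), which damages the colonic epithelium. DSS was given to every mouse for 7 days. By gavage, 3 mice had received berberine (BBR), a plant alkaloid, and 3 had received sulfasalazine (SASP), an aminosalicylate prodrug used against ulcerative colitis, each for 6 days. The methods describe adult male mice. Neither healthy mice nor mice with colitis and no drug were analysed here, so each difference below is between the drugs. The labels do not say that each library came from a separate mouse. The p-values measure the spread between libraries, which are called mice here.

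MMPs are zinc-dependent proteases that cut collagens, laminins, fibronectin and other proteins of the extracellular matrix. Most are secreted as inactive precursors and are activated by removal of an inhibitory propeptide, while Mmp14 sits in the cell membrane. TIMPs bind the active site of MMPs and block them. In the gut, fibroblasts and other stromal cells make much of this system, and several MMPs are known to be induced by inflammatory cytokines during colitis.

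Values are FPKM, read fragments scaled to transcript length and to the mapped reads of each sample, so levels of different genes can be compared per length. BBR and SASP mice were compared to learn which protease and inhibitor genes the drugs affected differently. Of the 10 genes, 6 reached 1 FPKM in at least 3 of the 6 mice and were tested, namely Mmp2, Mmp13, Mmp14, Timp1, Timp2 and Timp3. The other 4, Mmp3, Mmp7, Mmp9 and Mmp10, lay below this level and are given as values. None of the 6 tested genes passed an adjusted p of 0.05 in limma (0 of 6), and 0 of 6 had an unadjusted p of at most 0.05. Over all 12072 tested genes, 8.86% passed the adjusted threshold in either direction and 31.8% the unadjusted one. With limma's array quality weights 3 of the 6 passed, Mmp14 and Mmp2 higher (log2 fold changes 0.34 and 0.42, adjusted p = 0.0152 and 0.0462) and Timp1 lower (-0.56, adjusted p = 0.00668) in BBR mice, but 59% of all genes passed in that fit. In 5 of the 6 tested genes the mean was higher in BBR mice, and in 1, Timp1, it was lower. A positive log2 fold change was seen in 60.8% of all tested genes. The median log2 fold change of the 6 genes was 0.45, beside 0.10 over all tested genes. Fold changes are on the scale of log2(FPKM + 1), which understates differences of weakly expressed genes.

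**Figure D1:**
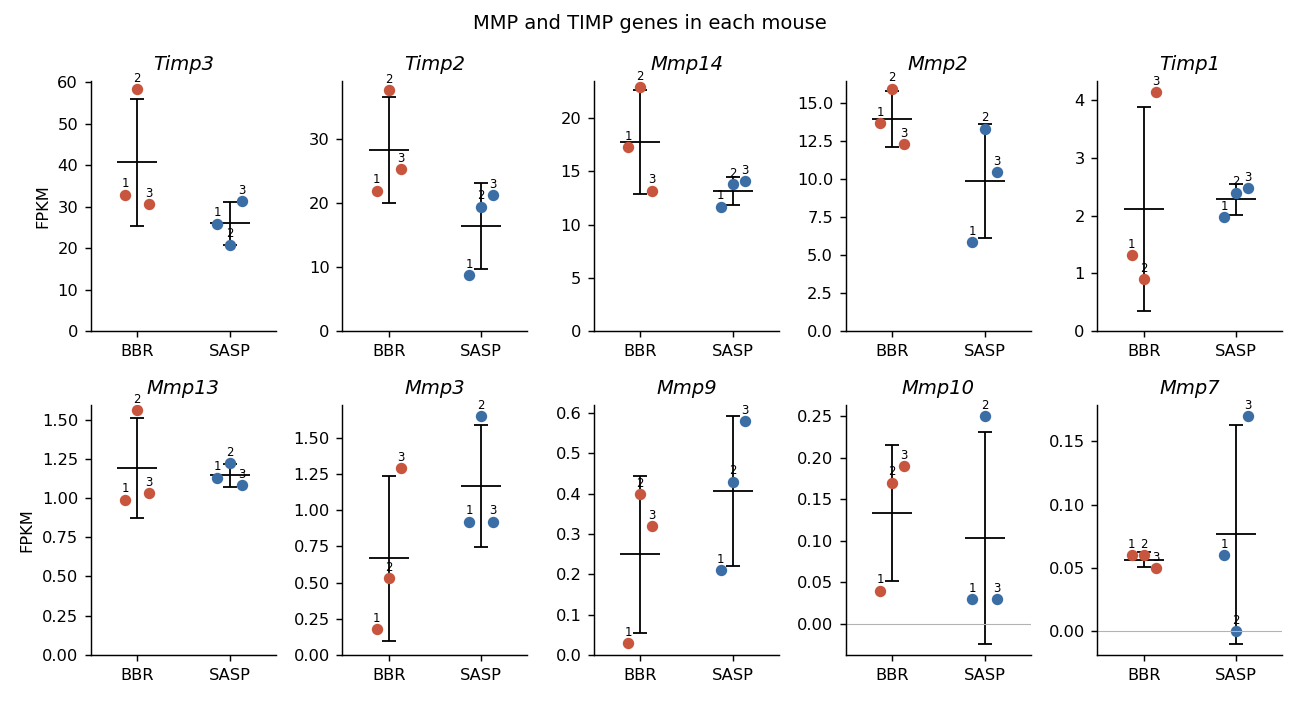
FPKM of each MMP and TIMP gene in 3 BBR mice (red) and 3 SASP mice (blue), ordered by level. Points are mice, numbered within their group, and the horizontal bar and whiskers give the mean and SD; Timp2 was the gene whose BBR values all lay above its SASP values.

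Timp3, which encodes an inhibitor held in the extracellular matrix, had the highest mean of the 10 genes in both groups. It was at 32.9, 58.41 and 30.68 FPKM in BBR mice 1, 2 and 3 and at 25.91, 20.87 and 31.3 FPKM in SASP mice 1, 2 and 3. BBR mouse 2 stood far above the others, and the remaining BBR values were close to the highest SASP value, so that the groups overlapped. The means were 40.7 ± 15.4 and 26.0 ± 5.22 FPKM (SD, n = 3 each), and the log2 fold change was 0.58 (95% interval -0.04 to 1.21, limma adjusted p = 0.178). Without BBR mouse 2 the fold change was 0.30. Timp3 overlaps the neuronal gene Syn3 in the annotation, which was at 0.36 to 0.72 FPKM, far below Timp3. Whether reads were assigned by strand is not given in the sources used here.

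Timp2 encodes an inhibitor that also helps the membrane protease Mmp14 to activate the Mmp2 precursor. Its values were 21.94, 37.58 and 25.32 FPKM in BBR mice and 8.72, 19.42 and 21.18 FPKM in SASP mice. Here every BBR value lay above every SASP value, although BBR mouse 1 and SASP mouse 3 were less than 1 FPKM apart. Among all tested genes the groups were likewise apart in 37.9%, and in 21.3% with BBR above SASP, so 1 such gene of 6 was no more than the background. The log2 fold change of Timp2 was 0.80 (95% interval -0.01 to 1.61, adjusted p = 0.161), the largest of the 6 tested genes. SASP mouse 1 was the lowest mouse, and without it the fold change was 0.42. The overlapping gene Cep295nl reached at most 0.18 FPKM.

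Timp1, an inhibitor known to be induced by inflammatory signals, was far weaker than Timp2 and Timp3. It was at 1.32, 0.9 and 4.14 FPKM in BBR mice and at 1.98, 2.4 and 2.47 FPKM in SASP mice. The SASP values lay close together, while the BBR mice included both the highest and the lowest values of the experiment. The log2 fold change was -0.21 (95% interval -1.05 to 0.63, adjusted p = 0.704). Without BBR mouse 3 Timp1 was lower in BBR mice by a log2 fold change of -0.64 (adjusted p = 0.0271), and without BBR mouse 2 the sign turned to 0.08. In the fit without BBR mouse 3, 33.8% of all tested genes passed the threshold, close to the 2 of 6 genes called there. Timp1 overlaps the neuronal gene Syn1, which was at 0.23 to 1.8 FPKM, a range that reached into that of Timp1.

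Of the MMPs, the membrane protease Mmp14 and the gelatinase Mmp2 were the genes with substantial levels. Mmp14 was at 17.26, 22.92 and 13.19 FPKM in BBR mice and at 11.7, 13.8 and 14.08 FPKM in SASP mice. BBR mice 1 and 2 were above all SASP mice, and BBR mouse 3 lay among them. The log2 fold change was 0.38 (95% interval -0.09 to 0.84, adjusted p = 0.23). It was 0.56 without BBR mouse 3, where the adjusted p was 0.0305, and 0.19 without BBR mouse 2.

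Mmp2, which degrades denatured and basement membrane collagens, was at 13.69, 15.95 and 12.3 FPKM in BBR mice and at 5.84, 13.32 and 10.47 FPKM in SASP mice. The groups overlapped, and SASP mouse 1 was lowest by a wide margin. The log2 fold change was 0.52 (95% interval -0.11 to 1.15, adjusted p = 0.225), and without SASP mouse 1 it was 0.22. Across the 6 tested genes, BBR mouse 2 held the highest value in 5 and SASP mouse 1 the lowest in 3. BBR mouse 2 was the highest mouse in 34.0% of all tested genes and SASP mouse 1 the lowest in 30.6%.

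**Figure D2:**
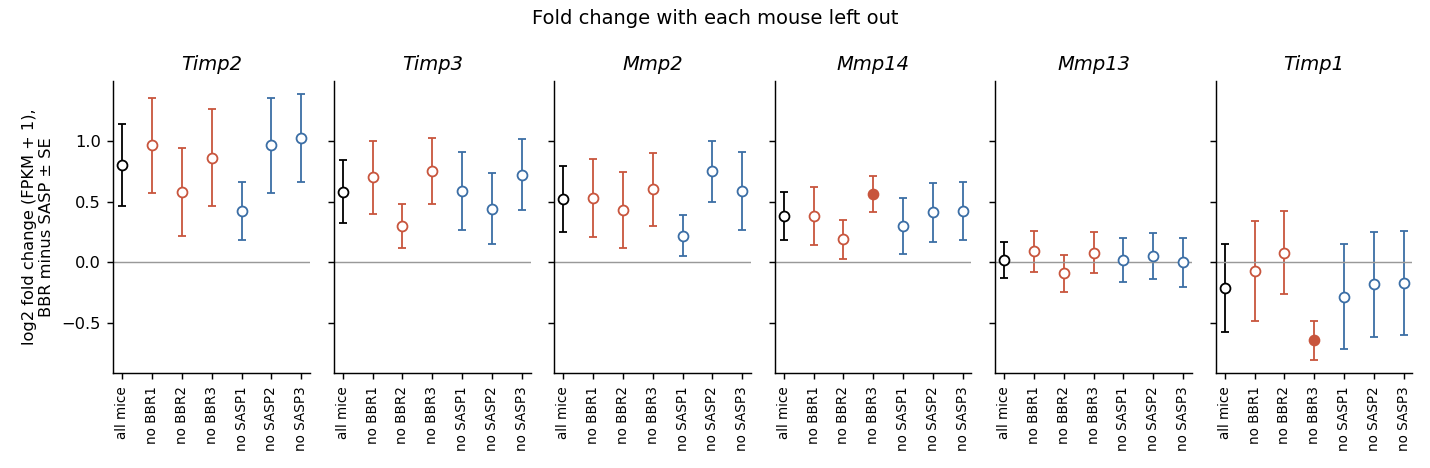
Log2 fold change of FPKM + 1 (BBR minus SASP) with its SE for the 6 tested genes, with all mice (black) and with each BBR mouse (red) or SASP mouse (blue) left out. Filled points passed an adjusted p of 0.05, which occurred for Mmp14 (0.56) and Timp1 (-0.64) without BBR mouse 3.

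Markers of muscle and stromal cells had higher sums in BBR mice, as Mmp2, Mmp14, Timp2 and Timp3 had higher means. The summed level of 10 smooth muscle genes ranged from 2905 to 6833 FPKM in BBR mice and from 763 to 2334 FPKM in SASP mice, and it was lowest in SASP mouse 1. All 10 were tested and 0 passed the threshold, beside 8.86% of all genes. The sum of 10 fibroblast and stromal genes was 395 to 604 FPKM in BBR and 246 to 328 FPKM in SASP mice, and it was highest in BBR mouse 2. In this list 1 of 10 passed the threshold, as higher in BBR mice, beside 3.82% of all genes. Of these markers none was listed at 0 in all mice. Endothelial markers were at 31.2 to 50.4 and 17.1 to 24.1 FPKM in sum. Of the 7 tested 1 passed the threshold, also as higher in BBR mice, beside the same 3.82%. In whole tissue, fewer cells of a type and less RNA per cell cannot be told apart. With the mean log2 level of the smooth muscle genes in the model, the fold changes of Mmp2 and Timp2 were 0.03 and 0.14. Those of Mmp14 and Timp3 were 0.45 and 0.80, and those of Timp1 and Mmp13 were -0.87 and 0.04. None of the 6 genes passed the threshold in that fit, where 0.157% of all genes did. The muscle sums of the groups did not overlap, so muscle content and drug cannot be told apart in these mice.

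Mmp13, a collagenase of stromal cells, was close to the limit of 1 FPKM in all mice. It was at 0.99, 1.56 and 1.03 FPKM in BBR mice and at 1.13, 1.22 and 1.08 FPKM in SASP mice. The groups overlapped nearly completely, with means of 1.19 ± 0.318 and 1.14 ± 0.0709 FPKM (SD, n = 3 each). The log2 fold change of 0.02 (95% interval -0.33 to 0.38, adjusted p = 0.923) had the narrowest interval of the 6 tested genes, and its sign changed with the scaling. The narrow interval depended on the 1 added to each FPKM. With 0.1 added instead, the interval of Mmp13 was -0.59 to 0.65, wider than that of Mmp14 (-0.10 to 0.89).

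The 4 genes below the filter rested on few reads. Depth was estimated from short genes seen in 1 mouse only, on the assumption that such a value is 1 read. On this scale Mmp3 rested on about 5.38 to 54.0 reads per mouse, Mmp9 on 1.58 to 30.9, Mmp10 on 0.866 to 7.83 and Mmp7 on 0 to 3.04. These read numbers are approximate, and differences at this depth cannot be resolved for Mmp7 and Mmp10.

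Mmp3 encodes stromelysin 1, which cuts many matrix proteins and can activate other MMP precursors. It was at 0.18, 0.53 and 1.29 FPKM in BBR mice and at 0.92, 1.65 and 0.92 FPKM in SASP mice. BBR mice 1 and 2 were below all SASP mice, but BBR mouse 3 was above all but SASP mouse 2. Mmp9, the gelatinase that neutrophils store in granules, was at 0.03, 0.4 and 0.32 FPKM in BBR mice and at 0.21, 0.43 and 0.58 FPKM in SASP mice. The groups overlapped, and BBR mouse 1 was the lowest. Mmp10, or stromelysin 2, was at 0.04, 0.17 and 0.19 FPKM in BBR mice and at 0.03, 0.25 and 0.03 FPKM in SASP mice. Mmp7, known from Paneth cells of the mouse small intestine, was at 0.06, 0.06 and 0.05 FPKM in BBR mice and at 0.06, 0 and 0.17 FPKM in SASP mice. Both genes overlapped between the groups. Fitted with no filter on low values, the log2 fold changes of Mmp3, Mmp9, Mmp10 and Mmp7 were -0.41, -0.17, 0.04 and -0.02, with limma adjusted p-values of 0.356, 0.475, 0.79 and 0.805. The 95% interval for Mmp3 reached from -1.05 to 0.22.

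Level differed by position in the genome. Mmp13, Mmp3, Mmp10 and Mmp7 belong to a cluster of MMP genes on mouse chromosome 9, together with Mmp8, Mmp12, Mmp20, Mmp27 and the 2 Mmp1 genes, which are not analysed here. The 8 cluster genes in the table reached at most 1.65 FPKM in any mouse, and 1 of the 8, Mmp13, passed the filter. Of the 16 MMP and TIMP genes elsewhere in the genome, 12 passed it. This is a description of 1 tissue, and neighbouring genes are not independent of each other.

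**Figure D3:**
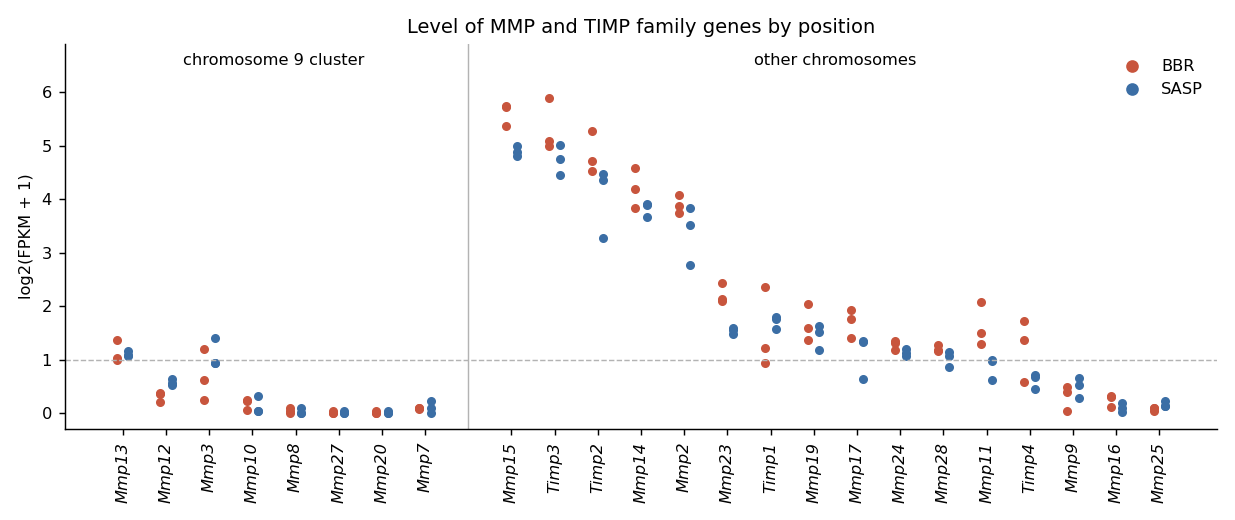
Level of 24 MMP and TIMP genes as log2(FPKM + 1) in BBR mice (red) and SASP mice (blue), with the chromosome 9 cluster in chromosomal order on the left and the others ordered by level on the right. The dashed line marks 1 FPKM; 7 of 8 cluster genes lay below the filter, and Mmp15, Timp3, Timp2, Mmp14 and Mmp2 stood above the rest.

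The promoters of the cluster genes and of the more highly expressed genes differed in the motifs they held. Promoter sequences were taken from RefSeq on GRCm38.p6, a different build from the mm9 named in the submitters' processing notes, for the 8 genes of the 10 with an entry. Mmp2 and Mmp9 had none. Each entry held 250 bases before and 50 after an annotated start and was searched on both strands for 3 motifs. The AP-1 site was searched as TGAGTCA or, on the opposite strand, as TGACTCA. The TATA motif was searched as TATAAA and, reading the opposite strand, as TTTATA. The GC box was searched as GGGCGG or, from the opposite strand, as CCGCCC. AP-1 is the Fos and Jun factor known to drive MMP genes in response to cytokines. The 80 bases before the first annotated start are shown 5′ to 3′ for the 4 cluster genes, with AP-1 and TATA motifs in capitals.
Mmp13, chr9:7272434-7272513, plus strand: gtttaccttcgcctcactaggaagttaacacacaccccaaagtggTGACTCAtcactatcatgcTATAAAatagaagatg
Mmp3, chr9:7445742-7445821, plus strand: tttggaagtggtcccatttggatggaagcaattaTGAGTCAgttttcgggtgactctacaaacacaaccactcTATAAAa
Mmp10, chr9:7502262-7502341, plus strand: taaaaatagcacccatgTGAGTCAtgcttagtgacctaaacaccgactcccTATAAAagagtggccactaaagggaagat
Mmp7, chr9:7692010-7692089, plus strand: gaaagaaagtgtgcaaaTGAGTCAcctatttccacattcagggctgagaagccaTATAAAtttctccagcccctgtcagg

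All 4 promoters held 1 AP-1 motif and at least 1 TATA motif and no GC box. The AP-1 motif began 35 bases before the start in Mmp13, 46 in Mmp3 and 63 in both Mmp10 and Mmp7. The TATA motif began 16, 7, 29 and 26 bases before it in Mmp13, Mmp3, Mmp10 and Mmp7, and Mmp7 held another 123 bases before. A second annotated start of Mmp7 had no match to any of the 3. Of 32851 promoters in the table, 5.2% held the AP-1 motif, 13.6% the TATA motif and 0.941% both. The same stretch is shown for the other 4 genes, with the GC box in capitals.
Mmp14, chr14:54431518-54431597, plus strand: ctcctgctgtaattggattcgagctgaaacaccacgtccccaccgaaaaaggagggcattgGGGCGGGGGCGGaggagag
Timp1, chrX:20870086-20870165, plus strand: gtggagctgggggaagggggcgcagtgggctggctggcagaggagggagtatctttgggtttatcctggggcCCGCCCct
Timp2, chr11:118355412-118355491, minus strand: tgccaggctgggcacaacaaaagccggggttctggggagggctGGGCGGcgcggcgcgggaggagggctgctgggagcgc
Timp3, chr10:86300332-86300411, plus strand: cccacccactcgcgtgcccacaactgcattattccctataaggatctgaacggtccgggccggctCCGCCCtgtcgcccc

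These 4 promoters held the GC box and neither of the other motifs in their 300 bases, and 35.7% of all promoters held it. The GC box began 37 bases before the start in Timp2, 15 in Timp3 and 8 in Timp1. In Mmp14 a pair of adjacent copies began 19 and 13 bases before, and Timp3 held another copy after the start. The genes with AP-1 and TATA motifs reached at most 1.65 FPKM, and Mmp14, Timp2 and Timp3 were at 8.72 FPKM or more. Timp1 did not follow this division, since at 0.9 to 4.14 FPKM its range overlapped those of Mmp13 and Mmp3. The matches describe letters in a window and say nothing of binding.

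The balance of the chosen proteases to the chosen inhibitors within a mouse was described by summed FPKM. The 7 MMP genes summed to 32.2, 41.6 and 28.4 FPKM in BBR mice and to 19.9, 30.7 and 27.3 FPKM in SASP mice. Mmp2 and Mmp14 made up 88.2% to 96.0% of this sum. The 3 TIMP genes summed to 56.2, 96.9 and 60.1 FPKM in BBR mice and to 36.6, 42.7 and 55.0 FPKM in SASP mice, of which Timp2 and Timp3 made up 93.1% to 99.1%. The inhibitor sum of these genes exceeded their protease sum in every mouse, and BBR mouse 2 was highest in both. Mmp15, which is not among them, was at 26.91 to 52.64 FPKM. Which sum was the larger therefore depends on the genes chosen, and the sums do not describe the whole family. The ratio of summed MMPs to summed TIMPs was 0.574, 0.429 and 0.472 in BBR mice and 0.543, 0.718 and 0.497 in SASP mice, so the groups overlapped. The ratio of Mmp14 to Timp2 was 0.787, 0.61 and 0.521 in BBR mice and 1.34, 0.711 and 0.665 in SASP mice. It overlapped as well, and SASP mouse 1 was the single mouse with more Mmp14 than Timp2. Sums and ratios over chosen genes were not tested.

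**Figure D4:**
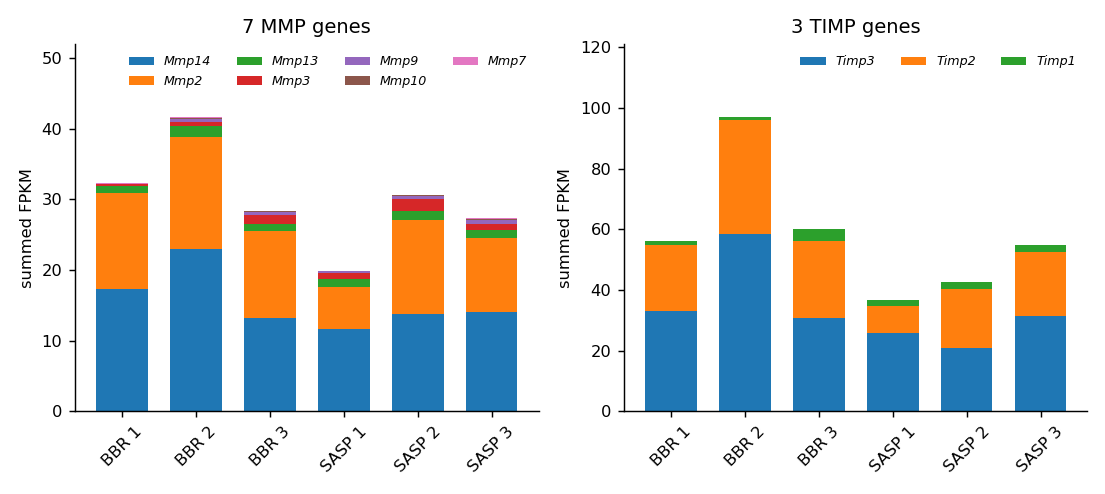
Summed FPKM of the 7 MMP genes (left) and the 3 TIMP genes (right) in each mouse, stacked by gene. Mmp14 and Mmp2 fill most of the protease bars and Timp3 and Timp2 most of the inhibitor bars, and BBR mouse 2 is the tallest in both (41.6 and 96.9 FPKM).

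In each group the order of the upper levels was Timp3, Timp2, Mmp14, Mmp2 and Timp1. Among BBR mice the ranges of neighbours in this order overlapped, except between Mmp2 and Timp1. In SASP mice Mmp2 and Timp1 were likewise apart, as were Timp1 and Mmp3, and Mmp13 and Mmp9. The ranges of Mmp13 and Mmp3 overlapped in both groups, as did those of Mmp9 and Mmp10 and of Mmp10 and Mmp7.

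The other members of the family were examined as a list of 17 genes, of which 14 were in the table and 7 were tested. Like the other lists, it was chosen with earlier results of these data known. All 7 had higher means in BBR mice, and 2 rose past the threshold, beside 3.82% of all genes called higher in BBR mice. Their median log2 fold change was 0.60. Mmp15, a membrane protease related to Mmp14, was the most highly expressed MMP of the table. It was at 52.64, 51.63 and 40.18 FPKM in BBR mice and at 28.6, 30.68 and 26.91 FPKM in SASP mice, with no overlap. The log2 fold change was 0.72 (SE 0.13, limma adjusted p = 0.0258). Mmp23, which lacks the usual cysteine switch of the propeptide, was at 3.28, 4.36 and 3.39 FPKM in BBR mice and at 1.78, 1.94 and 2.0 FPKM in SASP mice, again apart (log2 fold change 0.68, SE 0.14, adjusted p = 0.0363).

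With any 1 mouse other than BBR mouse 3 left out neither call was kept. Over all 6 such fits the fold changes were 0.65 to 0.84 for Mmp15 and 0.58 to 0.74 for Mmp23. Both calls were also lost with the smooth muscle covariate, where the fold changes were 0.86 for Mmp15 and 0.65 for Mmp23 and 0.157% of all genes passed. The call of Mmp23 was lost with no filter as well, at a fold change of 0.68. Mmp11, a protease of stromal fibroblasts, had a log2 fold change of 0.76 (adjusted p = 0.0822), and its groups did not overlap. The membrane-anchored Mmp17, Mmp19, the secreted epilysin Mmp28 and the membrane protease Mmp24 had fold changes of 0.60, 0.21, 0.18 and 0.15 with adjusted p-values of 0.146, 0.516, 0.397 and 0.445. Below the filter, the macrophage elastase Mmp12 was at 0.28, 0.3 and 0.15 FPKM in BBR mice and at 0.47, 0.44 and 0.55 FPKM in SASP mice. The neutrophil genes Mmp8 and Mmp25 reached at most 0.06 and 0.17 FPKM. Timp4 was at 1.56, 2.31 and 0.5 FPKM in BBR mice and at 0.63, 0.37 and 0.59 FPKM in SASP mice, overlapping through BBR mouse 3.

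**Figure D5:**
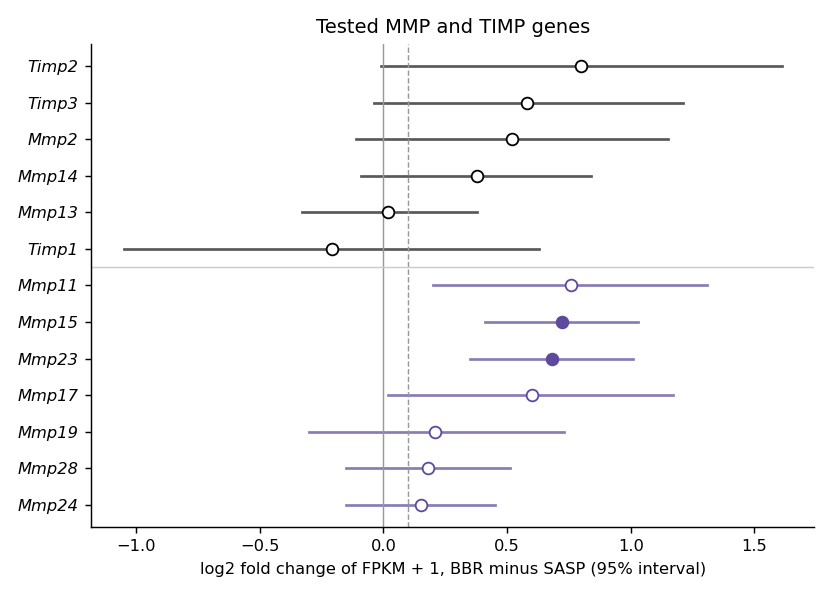
Log2 fold change of FPKM + 1 (BBR minus SASP) with its 95% interval for the 6 tested MMP and TIMP genes of the report (black) and 7 further family members (purple). Filled points passed an adjusted p of 0.05 (Mmp15 and Mmp23), the solid line marks 0 and the dashed line the median of all tested genes, 0.10.

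Activators and inhibitors outside the family included the plasminogen system, whose product plasmin can activate MMP precursors. Of 21 genes, 20 were in the table and 14 were tested, and 1 passed the threshold as higher and 0 as lower in BBR mice, beside 3.82% and 5.04% of all genes. The median log2 fold change was 0.48, beside 0.10 over all tested genes. The gene was Serpine2, an inhibitor of plasminogen activators and thrombin, at 4.44, 6.48 and 8.49 FPKM in BBR mice and at 1.84, 3.1 and 3.0 FPKM in SASP mice. The groups were apart (log2 fold change 1.02, limma adjusted p = 0.0489). Serpine2 passed in the fit without BBR mouse 3 and in no other with 1 mouse left out (fold changes 0.83 to 1.23), and it lost its call in 7 of 9 other alternatives. With the smooth muscle covariate its fold change was 0.41.

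Of 31 ADAM and ADAMTS proteases, which are relatives of the MMPs, 15 were tested. Their median log2 fold change was 0.34, beside 0.10 over all tested genes. Adam15, a membrane protease, was higher in BBR mice with means of 49.9 ± 7.23 and 34.3 ± 0.902 FPKM (SD, n = 3 in each group). It was the 1 gene of 15 called higher, and 0 were called lower, beside 3.82% and 5.04% of all genes. Its log2 fold change was 0.52 (limma adjusted p = 0.0492), and 0.43 to 0.63 with 1 mouse left out, where it passed in the absence of BBR mouse 3 alone. Its call was lost in 5 of 10 other alternatives, namely both other pseudocounts, no filter, no variance trend and the smooth muscle covariate (fold change 0.63).

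Matrix genes whose products MMPs cut had higher means in BBR mice in 18 of 18 cases, beside 60.8% of all tested genes, with a median of 0.70, beside 0.10. Of these, 4 passed the threshold as higher and 0 as lower, beside 3.82% and 5.04% of all genes. They were Col3a1, Lum, Eln and Col1a1, with log2 fold changes of 0.85, 1.32, 1.01 and 0.95 and limma adjusted p-values of 0.041, 0.0444, 0.0466 and 0.0481. These genes encode fibrillar collagens, a small proteoglycan of collagen fibrils and elastin. Col3a1, Lum and Col1a1 kept their calls in the fits without BBR mouse 3 and without SASP mouse 2, and Eln in the former, but none in the other fits with 1 mouse left out. Over the fits with 1 mouse left out the fold changes lay between 0.68 and 1.58. All 4 calls were lost with no filter and with the smooth muscle covariate, where the fold changes of Col3a1, Lum, Eln and Col1a1 were 0.53, 0.51, 0.41 and 0.48. Eln and Col1a1 also lost their calls with both other pseudocounts, Lum with a pseudocount of 0.01 and Col1a1 with no variance trend. SASP mouse 1 had the lowest value in all 18 genes, beside 30.6% of all tested genes.

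Of 20 cytokines and transcription factors known to induce MMP genes, 13 were tested, and 2 passed the threshold as higher and 2 as lower in BBR mice, beside 3.82% and 5.04% of all genes. Tnf, an inflammatory cytokine, fell most, at 1.02, 0.82 and 6.33 FPKM in BBR mice and 23.02, 14.9 and 33.38 FPKM in SASP mice. All BBR values were below all SASP values (log2 fold change -2.98, limma adjusted p = 0.0268). Myd88, an adaptor of Toll-like and interleukin-1 receptors, fell by 0.65 on the log2 scale (adjusted p = 0.0362). Fosl2, an AP-1 subunit, and Tgfb3, a growth factor acting on stromal cells, rose by 0.76 and 0.88 (adjusted p = 0.0291 and 0.0351). Of the fits with 1 mouse left out, these 4 genes passed in that without BBR mouse 3 alone, and over all of them fold changes ranged from -3.62 to -2.62 for Tnf, from -0.75 to -0.57 for Myd88, from 0.68 to 0.89 for Fosl2 and from 0.74 to 0.99 for Tgfb3. With the smooth muscle covariate none of the 4 passed, at fold changes of -3.68 for Tnf, -0.69 for Myd88, 1.01 for Fosl2 and 0.55 for Tgfb3. With no filter Tnf, Myd88 and Tgfb3 lost their calls (limma adjusted p = 0.0509, 0.0534 and 0.0596). The interleukin Il1b was at 0.33, 0.89 and 3.23 FPKM in BBR mice and at 0.7, 1.36 and 1.36 FPKM in SASP mice.

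Timp1 and Mmp3 were higher in BBR mouse 3 than in the other BBR mice, and so were some genes of the plasminogen system list. Of its 14 tested genes, 6 had their highest value of all mice in BBR mouse 3 and 3 their lowest. Over all tested genes BBR mouse 3 was highest in 14.1% and lowest in 34.1%. The following genes were picked after their values were seen. Plaur, the urokinase receptor, reached 17.23 FPKM in BBR mouse 3, with 2.4 and 3.28 FPKM in the other BBR mice, against 4.71 to 7.27 FPKM in SASP mice. Plat, tissue plasminogen activator, was at 19.45 FPKM in this mouse and at 1.11 to 3.15 FPKM in the other 5 mice. Plau, the urokinase itself, was instead lowest of the BBR mice in mouse 3, at 4.47 FPKM against 5.11 and 8.82 FPKM. Fn1, fibronectin, reached 135.75 FPKM in BBR mouse 3, with at most 50.88 FPKM in any other mouse.

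Markers of inflammatory cells were read beside these genes. Of 12 granulocyte markers 11 were in the table, with a summed level of 260, 211 and 612 FPKM in BBR mice and of 637 to 680 FPKM in SASP mice. Most of it was Ly6g in all BBR mice (190 to 552 FPKM), while the granule genes Mpo and Ngp reached at most 0.02 and 0.05 FPKM. Camp and Retnlg reached at most 0.47 and 0.37 FPKM, and Cxcr2 and Csf3r at most 1.8 and 1.9 FPKM. Of 7 tested granulocyte markers 3 were lower in BBR mice past the threshold, beside 5.04% of all genes. They were Ltf, S100a8 and Cd177, with log2 fold changes of -5.08, -3.49 and -1.83. S100a9 was at -2.21 and was not called. Ly6g and Csf3r overlapped between the groups (-0.50 and -0.51), and Cxcr2 overlapped with the opposite sign (0.12). S100a8, a neutrophil calcium-binding protein, had listed values of 0 in BBR mice 1 and 2, 6.19 FPKM in BBR mouse 3 and 18.53 to 23.14 FPKM in SASP mice. Macrophage markers summed to 141 to 190 FPKM in BBR and 258 to 281 FPKM in SASP mice. Of these, 1 of 9 tested, lower in BBR, passed the threshold, beside 5.04% of all genes. The gap in the sum lay mostly in Cd14, the gene called, with means of 24.8 and 92.0 FPKM, and Lyz2, with 76.9 and 105 FPKM. The other tested members differed less, and in both directions. Log2 fold changes were -0.31 for C1qb, -0.29 for C1qc, -0.18 for C1qa and -0.14 for Cd68, with overlapping groups. They were 0.06 for Adgre1, 0.12 for Csf1r and 0.42 for Mrc1, and in Mrc1 all BBR values were above SASP. Itgam, below the filter, was at 0.69 to 0.83 FPKM in BBR mice and at 0.92 to 1.02 FPKM in SASP mice. The part of these cells in the levels of Timp1, Mmp3 and Mmp9 was not tested. Markers of colonic epithelium were strong in all mice, at 8592 to 10357 FPKM in sum, and those of squamous epithelium weak, at 2.36 to 4.21 FPKM. Paneth cell markers, of which 3 of 6 were in the table, summed to 15.2 to 42.8 FPKM, with overlapping groups.

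Genes with the most similar profile to each tested member were found as those with the smallest root mean square difference of centred log2(FPKM + 1) over the 6 mice. For Mmp2 they were Ccdc3 and Cpxm2, with differences of 0.068 and 0.085, where Mmp2 itself varied by 0.421 about its mean. For Timp2 they were Prelp, a leucine-rich proteoglycan of the matrix, and the ion exchanger Slc24a3 (0.095 and 0.099). For Mmp14 they were Frmd4a and Zswim1 (0.047 and 0.054), and for Timp3 the clock gene Per1 and Rap1gap (0.109 and 0.126). For Timp1 they were Gramd3 and the interferon-inducible scramblase Plscr1 (0.053 and 0.073), both with their highest values in BBR mouse 3, at 68.75 and 281.44 FPKM. For Mmp13, which varied by only 0.120, they were Usp38 and Epb41l2 (0.030 and 0.034). With 12072 genes and 6 mice, close profiles are a description and carry no test.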

How the data were processed

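RNA of 6 colorectal samples was sequenced, and samples were grouped by their treatment label. The deposited FPKM values, 1 per gene and sample, were made by the authors, per the submitters' processing notes, with Bowtie2 2.2.5 and RSEM 1.2.12 and have 2 decimals. The build in the submitters' processing notes is mm9, and the annotation is not given in the sources used here. The sequencing methods, which do not name SASP mice, describe ribosomal RNA depletion and single-end reads of DNA nanoballs from rectum, whereas the labels name an Illumina kit and colorectal tissue. RSEM divides reads shared by similar genes, and FPKM hide depth, so no count model was used.

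FPKM were transformed as log2(FPKM + 1). Genes with at least 1 FPKM in at least 3 samples were fitted together, with variances moderated along a trend with level, in limma 3.58.1 under R 4.3.3. P-values were two-sided, adjusted by Benjamini-Hochberg over all tested genes and called at 0.05. The fit was tested on simulated data with independent noise for each gene and planted changes larger than those of the tested members. The simulation held no shifts shared across a mouse, so it does not bear on the differences described here. The members, lists and rules were chosen with earlier results of these data known. Named were all 10 members, all tested family genes, up to 4 called genes of every other list and, for each tested member, the 2 genes of closest profile. Genes named outside this rule are the overlapping genes Syn1, Syn3 and Cep295nl, weakly expressed family genes, single markers, Il1b and those identified as picked afterwards. Approximate read numbers used the longest GENCODE M21 transcript of each gene. Alternatives were other pseudocounts, filters and scalings, no variance trend, array weights, a smooth muscle covariate, the study's unadjusted threshold and leaving out each mouse.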

Additional observations from a re-analysis of the deposited data

How the results depend on the processing

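The count of 0 called MMP and TIMP genes held, over 4 to 10 genes tested, with both other pseudocounts, no filter, a mean of at least 5 FPKM, quantile normalization, median-ratio scaling, no variance trend, the smooth muscle covariate and the unadjusted threshold. With array quality weights it was 3, with Mmp14 (0.34) and Mmp2 (0.42) higher and Timp1 (-0.56) lower, in a fit that called 59% of all genes. With 1 mouse left out the count was 0 to 2, and the 2, Mmp14 and Timp1, came without BBR mouse 3. The fold change of Mmp13 was below 0 with quantile normalization (-0.09), median-ratio scaling (-0.05) and array weights (-0.04) and ranged from -0.09 to 0.09 with 1 mouse left out. That of Timp1 ranged from -0.64 to 0.08 with 1 mouse left out and was -0.87 with the smooth muscle covariate. The fold change of Mmp19 was -0.10 with array weights and -0.30 with the smooth muscle covariate. In the other lists 12 of 67 tested genes were called, beside 8.86% of all genes. The count became 7 of 67 with a pseudocount of 0.01 and 2 of 103 with no filter. With array weights it was 34 of 67, beside 59% of all genes. At the unadjusted threshold it was 31 of 67, beside 31.8%, and with the smooth muscle covariate 0 of 67, beside 0.157%. With 1 mouse left out it was 0 to 20. The 20, of 65 tested, came without BBR mouse 3, where 33.8% of all genes passed. The cause was not tested. No paired analysis was possible because the labels give the mice of both groups no shared number. With 3 mice a group, differences smaller than the intervals above could not be resolved, and Mmp7 and Mmp10 were limited by depth.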
